A study of Mus musculus with 3 samples.

Results

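The nuclear genes for respiratory complexes II to V, with cytochrome c, were followed in primary mouse peritoneal macrophages. They were chosen by symbol alone: Sdha to Sdhd, the Sdhaf and Uqcr genes, the Cox4 to Cox8 genes, the Atp5 genes, Cyc1 and Cycs. Sdhb, Sdhc, Cox4i1 and some other subunits are not analysed here. The rule found 43 of 20574 gene symbols, and 40 of them belong to a complex, assemble one or are cytochrome c. The other members only carry a matching name: Atp5s, Atp5sl and Cox4nb, now called Dmac2l, Dmac2 and Emc8. RNA was sequenced from 1 library per condition, each of macrophages labelled WT (wild type) and kept in DMEM. The macrophages were left without coculture, given apoptotic cells at 5 per macrophage for 5 h, or given LPS (a bacterial cell-wall lipid) at 100 ng/ml for 5 h. The labels give no strain, age, number of animals or kind of apoptotic cell, and no culture time for the untreated macrophages. Against that library, treatment and culture time or handling cannot be told apart.

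The respiratory chain passes electrons along the inner mitochondrial membrane and pumps protons across it. Complex II (succinate dehydrogenase) takes electrons from succinate without pumping, and complex III hands electrons from ubiquinol to cytochrome c. Complex IV (cytochrome c oxidase) gives them to oxygen, and complex V (ATP synthase) lets protons flow back to make ATP. All subunits of complex II are nuclear-encoded, whereas complexes III to V also hold subunits made from mitochondrial DNA, which are not analysed here. The series title links the uptake of apoptotic cells (efferocytosis) to electron transport and to macrophage polarization for repair. In macrophages given LPS, succinate oxidation by complex II is known to feed production of reactive oxygen.

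To show what kind of promoter these genes carry, sequence upstream of the RefSeq start is printed for 4 members on which the results turn. They include Cycs and Uqcrh, the only members at least 2-fold apart in a comparison of the values as deposited, on the log2(FPKM + 1) scale used below. Which members reach 2-fold depends on how the libraries are scaled, as given below. The others are Cox8a and Atp5l, which had the largest ratio of apoptotic cells to untreated in complexes IV and V. The strand is minus for each, the build is GRCm38.p6 and the sequences run 5′ to 3′, with bases inside annotated exons left off. Capitals mark a match, on either strand, to GCATGCGC (as in sites of the factor NRF1), TGACGTCA (the cyclic AMP response element), CCGGAAG (as in sites of ETS factors such as GABP) or CCAAT. No motif contains another.
Cycs, chr6:50566570-50566642: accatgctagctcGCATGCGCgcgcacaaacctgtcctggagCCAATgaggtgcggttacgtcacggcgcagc
Cox8a, chr19:7217617-7217866: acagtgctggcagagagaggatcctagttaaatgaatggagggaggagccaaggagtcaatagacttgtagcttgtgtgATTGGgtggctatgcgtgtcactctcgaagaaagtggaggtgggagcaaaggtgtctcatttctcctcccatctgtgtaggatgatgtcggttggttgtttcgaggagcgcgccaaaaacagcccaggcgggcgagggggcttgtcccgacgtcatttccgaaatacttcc
Atp5l, chr9:44920752-44920992: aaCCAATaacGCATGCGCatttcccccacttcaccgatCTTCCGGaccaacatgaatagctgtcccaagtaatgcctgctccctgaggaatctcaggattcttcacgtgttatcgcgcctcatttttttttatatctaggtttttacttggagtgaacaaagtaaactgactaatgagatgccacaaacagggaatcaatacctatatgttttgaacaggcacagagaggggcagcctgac
Uqcrh, chr4:116075072-116075268: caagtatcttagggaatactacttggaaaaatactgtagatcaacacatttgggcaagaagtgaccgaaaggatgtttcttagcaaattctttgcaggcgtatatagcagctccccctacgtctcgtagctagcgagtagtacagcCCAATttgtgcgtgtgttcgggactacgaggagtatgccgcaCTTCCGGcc
The Cycs match to GCATGCGC starts 60 bases before the start site, with CCAAT at 31 bases. In Uqcrh, CCGGAAG lies in reverse complement 10 bases before it and CCAAT 52 bases before it, and Cox8a holds only a reversed CCAAT at 171 bases. Atp5l holds 3 matches, at 248, 240 and 212 bases.

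RefSeq windows of 250 bases were at hand for 34 of the 43 members. GCATGCGC was found in 5 of them, Cycs, Cox6a1, Atp5g2, Atp5k and Atp5l, or 14.7%, beside 2.56% of all 27025 genes with a window and 4.72% of the 7968 of them listed above 0 in any library. CCGGAAG was found in 7 of 34 (20.6%), beside 7.83% of all genes and 14.1% of those above 0. The members with it were Sdhd, Sdhaf2, Uqcrh, Uqcr11, Cox6a1, Atp5e and Atp5l. CCAAT was found in 19 of 34 (55.9%, beside 37.5%) and TGACGTCA in 2, Uqcrfs1 and Cycs (5.88%, beside 1.77% of all genes and 2.90% of those above 0). In Cycs it lies in the stretch left off above, which is an exon of 5430402O13Rik. Among nuclear genes listed under complex I by their Nduf symbol and used for comparison, GCATGCGC lay in 1 of 24 windows and CCGGAAG in 3. For cytosolic ribosomal proteins these counts were 0 and 17 of 50 windows, so CCGGAAG was in a larger share there than among the members. These matches describe letters in a window, not binding.

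Levels are FPKM, counts of fragments scaled to transcript length and to mapped fragments, so they can be set side by side between genes. The deposited values summed to 199881 untreated, 197222 after apoptotic cells and 200224 after LPS. Read totals are not given. The smallest steps between values put 1 read on 1 kb at about 0.308, 0.323 and 0.323 FPKM in the same order, a rough guide from a weak fit. By it Sdha rested on about 424, 314 and 234 reads, but the muscle isoform gene Cox6a2 on only 13, 19 and 14. These estimates take the longest coding transcript of each gene and would be lower for a shorter one. Nothing was replicated, so no p-value is given and every difference is one between libraries.

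Many values are listed as exactly 0, including values of genes every cell uses, and such a 0 may be a failed estimate. Of the 43 members, 21 were above 0 in all 3 libraries, 18 were at 0 in 1 or 2 of them and 4 in all. Among members above 0 in both other libraries, 5 of 26 (19.2%) were listed at 0 untreated, 6 of 27 (22.2%) with apoptotic cells and 1 of 22 (4.55%) with LPS. Over all genes these shares were 38.6%, 18.6% and 21.9%. Among genes averaging at least 50 FPKM they were 18.2%, 13.5% and 13.2%. Ratios were therefore formed only between libraries above 0, as log2((FPKM + 1)/(FPKM + 1)), where the mean over the libraries was 1 FPKM or more. This left 21 members for apoptotic cells against untreated, 27 for LPS against untreated and 26 for apoptotic cells against LPS, so the counts below do not stand for all 43.

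**Figure D1:**
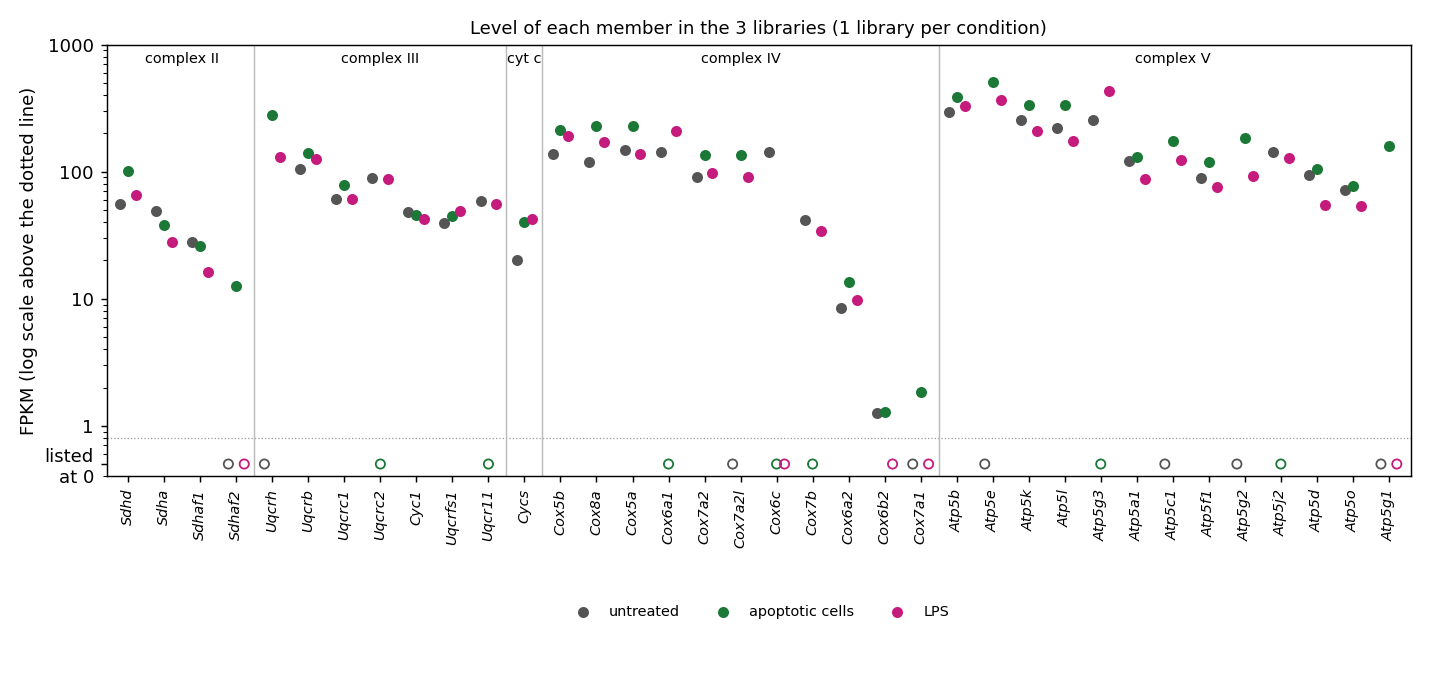
FPKM of each complex member listed above 0 in at least 1 library (vertical axis, log scale above the dotted line), grouped by complex and ordered by mean level; filled points are the 3 libraries and open points below the line are values listed at 0. Most ATP synthase and complex IV genes sit near or above 100 FPKM, Cox6a2, Cox6b2 and Cox7a1 sit far below them, and 16 of the genes drawn have an open point.

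Across the members, most stood highest with apoptotic cells. Of the 21 above 0 in all 3 libraries, 16 were highest there, beside 35.2% of all 2891 such genes, 3 were highest untreated (background 48.7%) and 2 with LPS (16.1%). None of the 21 was lowest with apoptotic cells, beside 21.6% of all genes, while 10 were lowest untreated (25.1%) and 11 with LPS (53.3%). The 3 highest in the untreated library were Sdha, Sdhaf1 and Cyc1, and those highest with LPS were Cycs and Uqcrfs1. Libraries can also be scaled to each other by the median of gene-wise ratios (median-of-ratios), which divides the untreated, apoptotic-cell and LPS values by 1.22, 1.05 and 0.791. This moved the median log2 ratio of all genes from -0.13 to 0.06 for apoptotic cells against untreated, from -0.40 to 0.12 for LPS against untreated and from 0.32 to -0.02 for apoptotic cells against LPS. It left 13 members highest with apoptotic cells (31.4% of all genes), 7 with LPS (33.3%) and 1 untreated (35.3%). Under median-of-ratios scaling 18 of the 21 were lowest untreated (39.7% of all genes), 3 with LPS (32.3%) and 0 with apoptotic cells (28.1%). Scaling by the upper quartile gave 16, 2 and 3 highest (33.8%, 20.5% and 45.7% of all genes). By it 11 were lowest untreated (29.2%), 9 with LPS (46.5%) and 1 with apoptotic cells (24.3%). Without Cox6a2 and Atp5s, which rest on under 20 reads in each library, 14 of 19 were highest with apoptotic cells as deposited and 11 under median-of-ratios scaling. Abundant genes as a class lean the same way: of 341 genes averaging at least 50 FPKM and above 0 throughout, 49.3% were highest with apoptotic cells and 16.1% lowest.

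**Figure D2:**
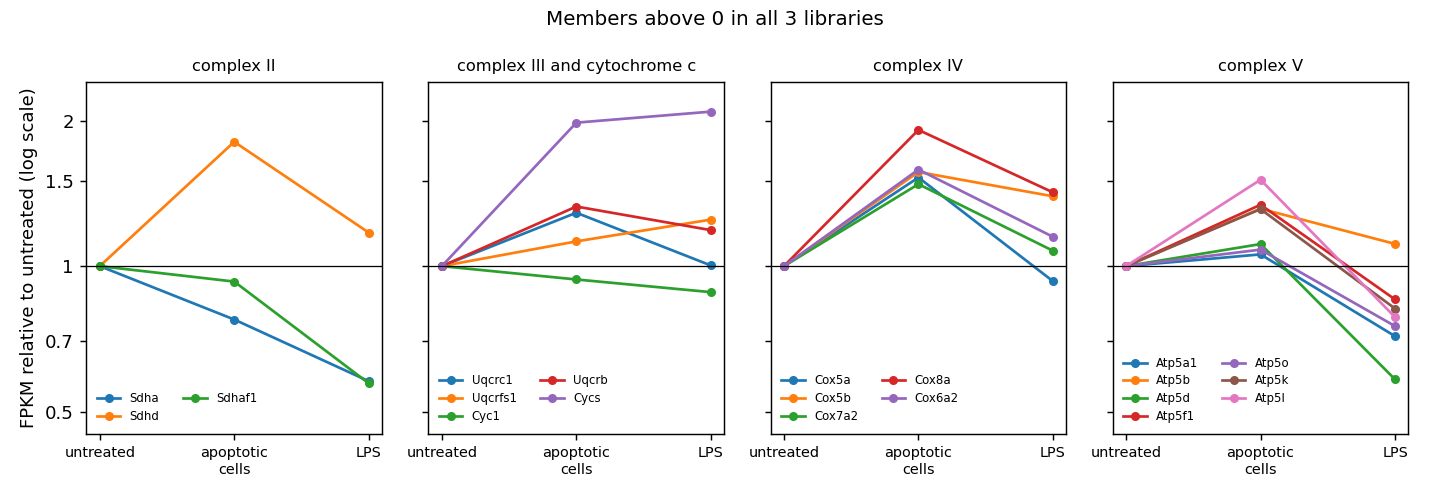
FPKM of each complex member above 0 in all 3 libraries, divided by its untreated value (vertical axis, log scale), in each of the libraries; each line is 1 gene and 1 library stands behind each point. Complex IV genes peak with apoptotic cells, 6 of the 7 complex V genes end below 1 with LPS, and Cycs stands near 2 in both treated libraries.

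The complex II subunits analysed, Sdha and Sdhd, differed in the place of the untreated library, which was highest for Sdha and lowest for Sdhd. Both were higher with apoptotic cells than with LPS (log2 ratios of 0.41 and 0.62). Sdha, the flavoprotein that oxidises succinate, was listed at 48.7 FPKM untreated, 37.8 with apoptotic cells and 28.2 with LPS. It was highest untreated and lowest with LPS, with log2 ratios of -0.36 for apoptotic cells and -0.77 for LPS against untreated, and the order was the same under both other scalings, though median-of-ratios scaling narrowed apoptotic cells against LPS from 0.41 to 0.01. Sdhd, a membrane anchor that holds haem and the ubiquinone site, was listed at 56.1, 101 and 65.8 FPKM. It was highest with apoptotic cells, at 1.81 times the untreated FPKM (log2 ratio 0.84), with a smaller difference for LPS against untreated (0.23), which was 0.84 under median-of-ratios scaling. Sdhaf1, a factor for inserting iron-sulfur clusters into the complex, stood at 28.1, 26.1 and 16.1 FPKM. Like Sdha it was lowest with LPS (-0.77 against untreated), and its small difference between apoptotic cells and untreated (-0.10) turned positive under median-of-ratios scaling (0.11). Sdhaf2, which adds the flavin to Sdha, was above 0 only with apoptotic cells, at 12.6 FPKM. In mm10, Sdha lies on the minus strand of chromosome 13 from 74322254 to 74350280 and Sdhd on that of chromosome 9 from 50596357 to 50603812.

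In complex III, the genes above 0 in every library differed by less than 1.5-fold in every comparison as deposited, while LPS against untreated reached 0.92 for Uqcrfs1 under median-of-ratios scaling. Cyc1, the haem subunit that passes electrons to cytochrome c, was listed at 48.3 FPKM untreated, 45.4 with apoptotic cells and 42.7 with LPS. Uqcrfs1, the Rieske iron-sulfur protein, stood at 39.5, 44.4 and 49.3 FPKM. The libraries lie close for both genes, and the order for Cyc1 depended on scaling. The core gene Uqcrc1 stood at 60.9, 78.5 and 61.1 FPKM, and Uqcrb, a small subunit near the quinone site, at 105, 140 and 125 FPKM. Both were highest with apoptotic cells as deposited (log2 ratios of 0.36 and 0.41 against untreated), and highest with LPS under median-of-ratios scaling. The other core gene, Uqcrc2, was listed at 88.6 FPKM untreated and 87.5 with LPS and at 0 with apoptotic cells, and the small subunit gene Uqcr11 at 58.8, 0 and 55.8. Their log2 ratios of LPS to untreated were -0.02 and -0.07 as deposited, and 0.60 and 0.54 under median-of-ratios scaling. Uqcrh, the hinge protein that helps cytochrome c bind to Cyc1, stood at 277 FPKM with apoptotic cells, 131 with LPS and 0 untreated. Its log2 ratio of apoptotic cells to LPS, 1.08, was the largest of the 26 members. Median-of-ratios scaling brought it to 0.67. The gene lies on the minus strand of chromosome 4 from 116066965 to 116075071.

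Cytochrome c stood higher in both treated libraries than untreated. Cycs, the soluble carrier between complexes III and IV that also triggers apoptosis when it leaves the mitochondrion, was listed at 20.3 FPKM untreated, 40.1 with apoptotic cells and 42.3 with LPS. Both treated libraries stood well above the untreated one and, as deposited, close to each other. The log2 ratios against untreated were 0.95 and 1.03, the highest of any member in each comparison, and they stayed positive under both other scalings. Apoptotic cells against LPS stood at -0.07 as deposited, -0.47 under median-of-ratios scaling and -0.21 under upper-quartile scaling. The values rest on about 191, 361 and 380 reads. Cycs lies on the minus strand of chromosome 6 from 50562563 to 50566538, and 27.6% of the 50-base words of its longest coding transcript also occur in Gm10053, a near copy, so reads of these genes may not be separated.

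The 5 complex IV genes above 0 in every library were all highest with apoptotic cells as deposited, and 4 of them under median-of-ratios scaling. Without Cox6a2, which rests on few reads, these counts were 4 of 4 and 3 of 4. Cox5a, a structural subunit on the matrix side, was listed at 149 FPKM untreated, 227 with apoptotic cells and 139 with LPS. Cox5b, the zinc-binding subunit, stood at 137, 214 and 191 FPKM. Cox8a, a small membrane subunit, stood at 120, 229 and 170 FPKM. Cox7a2, the common form of subunit VIIa, stood at 91.1, 135 and 98.0 FPKM. In each of these genes the apoptotic-cell library was highest. Log2 ratios against untreated were 0.61, 0.64, 0.93 and 0.56 in that order. Against LPS they were 0.71, 0.17, 0.43 and 0.45, and under median-of-ratios scaling 0.30, -0.24, 0.02 and 0.05, so that scaling set Cox8a and Cox7a2 about level between these libraries. Summed over the 5 complex IV genes above 0 in every library, levels were 505, 819 and 607 FPKM untreated, with apoptotic cells and with LPS. Cox8a lies on the minus strand of chromosome 19 from 7215153 to 7217616.

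Other complex IV subunits carried a listed 0. Cox6a1, a regulatory subunit, was listed at 142 FPKM untreated, 209 with LPS and 0 with apoptotic cells (log2 ratio of LPS to untreated 0.55). Cox6c was above 0 only untreated, at 142 FPKM. Cox7b stood at 41.6 FPKM untreated and 34.0 with LPS and was listed at 0 with apoptotic cells. Cox7a2l, which ties complexes III and IV into supercomplexes, stood at 135 FPKM with apoptotic cells, 90.7 with LPS and 0 untreated. Of the Cox7a2l values above 0, that with apoptotic cells was higher (0.56). For these genes the library listed at 0 differs from gene to gene.

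Of the 7 tissue-restricted complex IV isoforms, 4 were listed at 0 in every library, where a 0 cannot be read as absence. Cox4i2, Cox7b2, Cox8b and Cox8c, forms known from lung, testis, or heart and brown fat, were these 4. Cox6b2, the testis form of subunit VIb, was listed at 1.26 and 1.28 FPKM untreated and with apoptotic cells and at 0 with LPS, and Cox7a1, the heart and muscle form, at 1.86 FPKM with apoptotic cells only. These values amount to 1 or 2 reads by the estimate above. Cox6a2, the heart and muscle form of subunit VIa, was above 0 in every library, at 8.51, 13.5 and 9.78 FPKM. That is far below the 142 and 209 FPKM of its common counterpart Cox6a1. The gene is counted among the complex IV genes, so the counts are also given without members that rest on under 20 reads in their best library.

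The 7 ATP synthase genes above 0 in every library were all highest with apoptotic cells, and 6 were lowest with LPS; under median-of-ratios scaling these counts were 6 and 1. In the catalytic F1 head, Atp5b, the beta subunit that forms ATP, was listed at 295 FPKM untreated, 388 with apoptotic cells and 328 with LPS. Atp5a1, the alpha subunit, stood at 122, 129 and 87.6 FPKM. The beta gene was lowest untreated and the alpha gene lowest with LPS, which median-of-ratios scaling turned to lowest untreated. Atp5d, the delta subunit of the rotor stalk, stood at 94.4, 105 and 55.0 FPKM. Its LPS value was the lowest against untreated in complex V (log2 ratio -0.77) and stayed below untreated under both scalings (-0.15 and -0.59). The other genes of the central stalk were listed at 0 untreated. The gamma subunit gene Atp5c1 stood at 176 FPKM with apoptotic cells and 123 with LPS, and the epsilon subunit gene Atp5e at 505 and 367 FPKM. Both were higher with apoptotic cells (0.51 and 0.46). Atp5e at 505 FPKM was the highest value of any member.

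Of the peripheral stalk, Atp5f1 (subunit b) was listed at 89.3, 120 and 76.2 FPKM and Atp5o, which anchors the stalk to F1, at 71.3, 77.1 and 53.6 FPKM. Of the membrane part, Atp5l (subunit g) stood at 220 FPKM untreated, 333 with apoptotic cells and 173 with LPS. Atp5k (subunit e) stood at 257, 338 and 210 FPKM. All of these were highest with apoptotic cells and, as deposited, lowest with LPS. Atp5l had the widest span, with log2 ratios of 0.59 against untreated and 0.94 against LPS, but 8 annotated genes share over 10% of its 50-base words. For these 4 genes the LPS value was below the untreated one as deposited (-0.23, -0.41, -0.35 and -0.29) and above it under median-of-ratios scaling. Summed over the 7 complex V genes above 0 in every library, levels were 1150, 1489 and 984 FPKM. Atp5j2 (subunit f) was listed at 142 FPKM untreated, 129 with LPS and 0 with apoptotic cells.

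The c ring, whose turning drives ATP synthesis, is encoded by 3 genes with one and the same mature protein, and no library listed all 3 above 0. Atp5g1 was above 0 with apoptotic cells alone (159 FPKM). Atp5g2 stood at 184 FPKM with apoptotic cells, 91.8 with LPS and 0 untreated, and Atp5g3 at 257 untreated, 434 with LPS and 0 with apoptotic cells. Which c-ring gene was listed above 0 thus differed between all libraries. The ratio of Atp5g2 between apoptotic cells and LPS was 0.99 on the log2 scale, and that of Atp5g3 between LPS and untreated was 0.75.

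**Figure D3:**
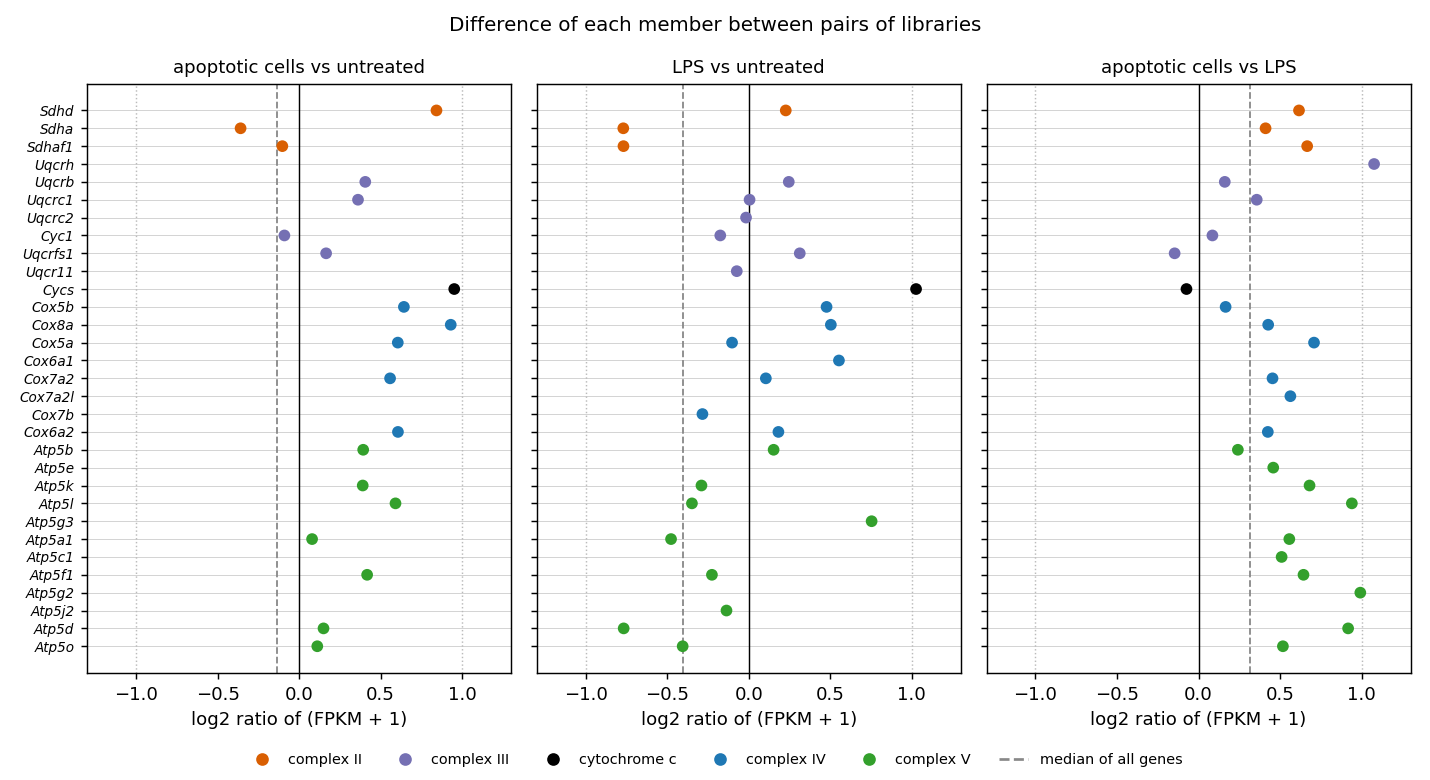
Log2 ratio of (FPKM + 1) for each complex member (rows) in the 3 comparisons (panels); solid lines mark 0, dotted lines 2-fold, and dashed lines the median of all genes at -0.13, -0.40 and 0.32. As deposited, all complex IV and V points lie to the right of 0 in both panels with apoptotic cells, and only Cycs (LPS against untreated) and Uqcrh (apoptotic cells against LPS) reach the 2-fold line.

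For apoptotic cells against untreated, the median of the 21 members was 0.39, beside -0.13 over all 3369 genes. Of these members 18 were higher (44.5% of all genes) and 3 lower (55.4%). None reached 2-fold in either direction, beside 12.4% of all genes higher and 16.4% lower. At 1.5-fold 7 were higher, beside 22.1%, and 0 lower, beside 30.3%. The 7 were Cycs, Cox8a, Sdhd, Cox5b, Cox5a, Cox6a2 and Atp5l. By complex, medians were 0.61 for the 5 genes of complex IV (0.62 for 4 without Cox6a2) and 0.39 for 7 of complex V. They were 0.26 for 4 of complex III and -0.10 for 3 of complex II. The complex II median is the value of the assembly factor gene Sdhaf1, with Sdha at -0.36 and Sdhd at 0.84. It was 0.11 under median-of-ratios scaling. Among 393 genes averaging at least 50 FPKM the median was 0.39 and 65.6% were higher, and the 14 members so abundant had a median of 0.41 with 14 higher. The members' median was therefore close to that of genes as abundant. Under median-of-ratios scaling 20 members were higher, beside 52.5% of all genes, and 1, Sdha, lower.

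For LPS against untreated, the 27 members had a median of -0.07, beside -0.40 over all 3421 genes. As deposited 12 were higher (33.5% of all genes) and 15 lower (66.5%). Under median-of-ratios scaling 24 were higher, beside 54.9% of all genes, and 3 lower. As deposited, only Cycs was at least 2-fold higher, beside 8.51% of all genes, and 0 were 2-fold lower, beside 26.2%. At 1.5-fold Cycs and Atp5g3 were higher (15.9%), and Sdha, Sdhaf1 and Atp5d lower (42.7%). These 3 are the ones still lower under median-of-ratios scaling, at -0.16, -0.17 and -0.15. Complex medians were 0.18 for 7 genes of complex IV (0.29 for 6 without Cox6a2) and -0.01 for 6 of complex III. They were -0.29 for 9 of complex V and -0.77 for 3 of complex II. The last is again the Sdhaf1 value, with Sdha at -0.77 and Sdhd at 0.23. Among genes averaging at least 50 FPKM the median was 0.19, above the -0.01 of the 18 members there.

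For apoptotic cells against LPS, where both libraries were taken at 5 h, the median of 26 members was 0.51, beside 0.32 over all 4599 genes. Of these 24 were higher (69.6% of all genes) and 2 lower (30.4%), Uqcrfs1 (-0.15) and Cycs (-0.07). Uqcrh alone reached 2-fold on this scale, beside 15.7% of all genes higher, and 0 were 2-fold lower, beside 5.54%. As plain FPKM ratios, Atp5g2 (184 against 91.8 FPKM) and Atp5s (2.27, on about 7 and 3 reads) also reached it. At 1.5-fold 10 were higher (33.4%) and 0 lower (10.8%): Uqcrh, Atp5g2, Atp5l, Atp5d, Cox5a, Atp5k, Sdhaf1, Atp5f1, Atp5s and Sdhd. All 10 complex V genes were higher as deposited, with a median of 0.60, and 9 of 10 under median-of-ratios scaling, which turned Atp5b to -0.17. That scaling moved the members' median to 0.11, beside -0.02 over all genes. The split became 19 higher, beside 48.9% of all genes, and 7 lower. Among genes averaging at least 50 FPKM the median was 0.31 and 70.3% were higher, while the 19 members there had a median of 0.56 with 19 higher. The comparisons with the untreated library share it, and all 3 comparisons share libraries in pairs, so they are not independent of each other.

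**Figure D4:**
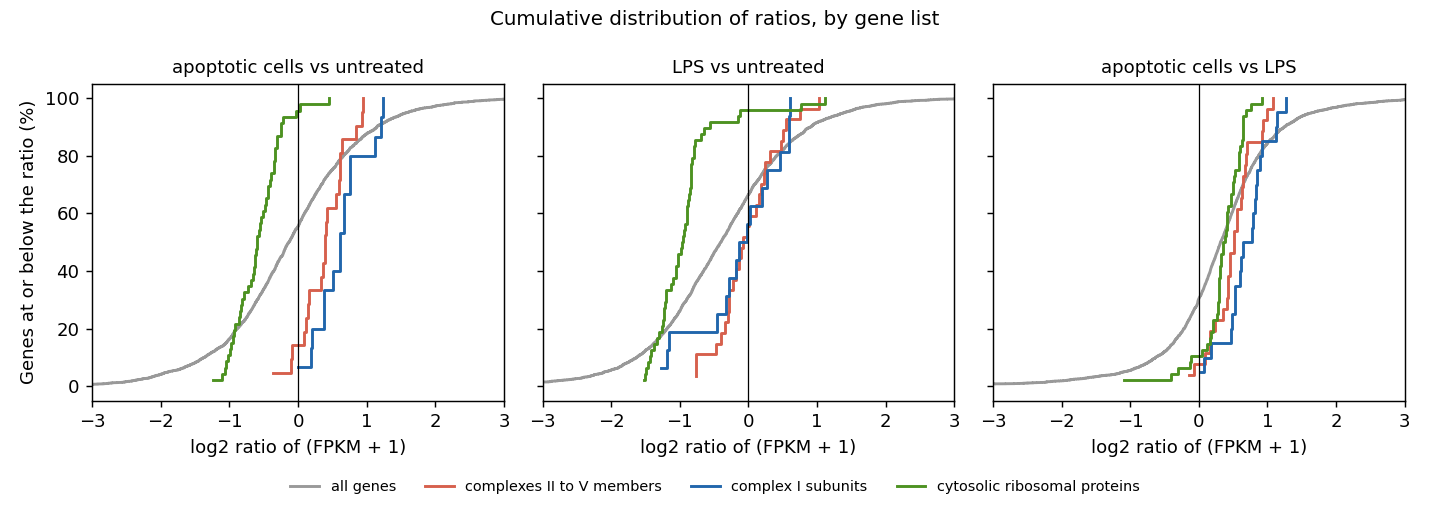
Cumulative share of genes (vertical axis, percent) at or below each log2 ratio of (FPKM + 1) in the 3 comparisons, for all genes, the members, complex I subunits and cytosolic ribosomal proteins. With apoptotic cells against untreated, at the medians, the members' curve lies right of all genes and slightly left of complex I. That of ribosomal proteins lies to the left there. No member reaches 2-fold higher, beside 12.4% of all genes, so the members' curve ends left of the all-gene curve.

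Complex I and ribosomal protein genes lay on either side of the members in the comparison of apoptotic cells with untreated. The 15 nuclear complex I genes above 0 in both libraries had a median of 0.62 for apoptotic cells against untreated, with 15 higher, among them Ndufb4 (43.9 against 105 FPKM), whereas 44 of 46 cytosolic ribosomal protein genes were lower (median -0.60). Against LPS the 20 genes listed under complex I by their Nduf symbol, Ndufa4 among them, had a median of 0.71. The 48 ribosomal genes had one of 0.37. No list was tested against another.

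Assembly factors of complexes III to V included genes highest in each of the 3 libraries. Of 37 on the list 19 were analysed, and 4 were above 0 both untreated and with apoptotic cells at a mean of at least 1 FPKM. Cox15, which makes the haem of complex IV, stood at 4.19 FPKM untreated, 6.87 with apoptotic cells and 4.09 with LPS, highest in the second. Atpaf1, a chaperone of the F1 head, stood at 6.12, 3.26 and 1.37 FPKM, highest untreated. Higd2a, a complex IV assembly factor, stood at 43.1, 29.2 and 27.1 FPKM and Tmem70, an ATP synthase assembly factor, at 23.4, 20.1 and 16.9 FPKM. Atpif1, the natural inhibitor of ATP synthase, stood at 65.5 FPKM with apoptotic cells, 35.3 with LPS and 0 untreated, and the copper chaperone gene Cox17 at 87.7 FPKM with apoptotic cells only. Highest with LPS were Cox19 (0, 14.1 and 17.5 FPKM), Cox10 (0, 4.40 and 5.02) and Sco1 (0, 2.53 and 2.89). Atpaf2 (6.04 FPKM) and Ttc19 (4.45) were above 0 with LPS only. The list's median was -0.38 for apoptotic cells against untreated, with 0 of 4 at 2-fold, beside 12.4% of all genes higher and 16.4% lower. It was -0.65 over 5 genes for LPS, with 2 lower at 2-fold, Atpaf1 and Cmc1, beside 26.2% of all genes.

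Among transcriptional regulators of respiratory genes, 10 of 12 were analysed. Esrra, a nuclear receptor that drives them, stood at 6.75, 8.75 and 11.5 FPKM, highest with LPS. Polrmt, the mitochondrial RNA polymerase, stood at 8.06, 3.03 and 2.1 FPKM, highest untreated, and was the only one of 3 past 2-fold lower with either treatment, beside 16.4% of all genes with apoptotic cells and 26.2% with LPS. Tfam, which packs and transcribes mitochondrial DNA, was above 0 only with apoptotic cells, at 6.18 FPKM. Others on the list were above 0 only in another library: Tfb2m untreated (23.9 FPKM), and Gabpb1 (27.4) and Pprc1 (7.52) with LPS. The coactivator gene Ppargc1a was listed at 0 in every library and Ppargc1b at 0.171 FPKM untreated only. Of the carriers that serve ATP synthase, the ADP/ATP exchanger gene Slc25a5 stood at 208, 351 and 266 FPKM and its isoform Slc25a4 at 42.4, 36.7 and 19.9 FPKM. The first was highest with apoptotic cells and the second lowest with LPS. The phosphate carrier gene Slc25a3 stood at 252 FPKM with apoptotic cells, 189 with LPS and 0 untreated. Of 3 carriers above 0 in both libraries, 0 were 2-fold apart for apoptotic cells against untreated (12.4% of all genes higher, 16.4% lower) and 1, Slc25a4, was 2-fold lower with LPS (26.2%).

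Markers of the cell types these preparations could hold also differed between libraries. Of the macrophage list 3 of 8 were analysed. Csf1r was listed at 56.3, 185 and 0 FPKM and Cd14 at 303, 555 and 0, so both defining genes were at 0 with LPS, and Mrc1 was at or under 1.15 FPKM. Summed T cell and thymocyte markers (9 of 10 analysed) were at 31.0, 88.3 and 1.95 FPKM, with Rag1 at 41.2 FPKM with apoptotic cells and 0 untreated, and Cd3e and Cd3d at 0 untreated and with LPS. The 4 of them above 0 both untreated and with apoptotic cells were lower with apoptotic cells: Cd3g (12.6 and 10.6 FPKM), Cd4 (3.48 and 1.80), Rag2 (1.43 and 0.902) and Dntt (13.5 and 13.0). Mast cell markers (6 of 6) summed to 93.0, 13.8 and 10.2 FPKM, with Fcer1a at 0 untreated and Cpa3 at 0 with apoptotic cells. Neutrophil markers (6 of 7) summed to 118, 325 and 496 FPKM, mostly from S100a8 (48.1, 116 and 222) and Lcn2 (64.1, 187 and 272). Camp was at 0.713, 0.752 and 2.33 FPKM and Mmp8 at 2.48, 16.0 and 0.548. S100a9 (1.65 and 1.79 FPKM) and Ngp (0.611 and 2.27) were at 0 with LPS. Of the B cell markers, Cd79a was above 0 only with LPS, at 33.6 FPKM, Ms4a1 was at 0, 28.9 and 15.9 FPKM, and Blnk, which myeloid cells also express, was at 82.7, 38.4 and 18.5 FPKM. Mesothelial and fibroblast markers (7 of 7) summed to 24.6, 2.05 and 1.13 FPKM, with Lum at 0 throughout, and erythroid ones (2 of 6) to 0.315, 0 and 0 FPKM. The part of other cells, or of RNA from engulfed cells, in the differences of the respiratory genes was not tested. In bulk RNA, fewer cells of a type and less RNA per cell cannot be told apart.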

How the data were processed

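RNA-seq of 3 libraries, 1 per condition, was analysed from 1 deposited value per gene symbol and library. The authors' deposited values were taken as FPKM: no label or file header names the unit, but Cufflinks 2.2.1 and Cuffdiff, after TopHat2 2.1.0 and cutadapt 1.14, stand in the submitters' processing notes together with mm10, and the smallest values depend on transcript length. Options, annotation and strand setting: not given in the sources used here. Members and lists were chosen with earlier results of these data known.

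Ratios, counts and medians were computed in Python 3.11.15 with pandas 2.3.3 and tested on simulated data. A pseudocount of 1 FPKM and a mean of at least 1 FPKM were used, and fold thresholds of 2 and 1.5. The text may name any member found by the rule, with values for those above 0 in a library, and other genes only from the lists. Coordinates and transcripts came from GENCODE M21 (mm10), found for 43 of 43 members, and promoter windows from RefSeq (GRCm38.p6). Sharing was counted in words of 50 bases. The worth of 1 read was fitted to genes with 1 annotated transcript, taking 225 bases off each length. Reads of a member were then estimated over its longest coding transcript. No test was run because each group has 1 library. Alternatives were other pseudocounts, filters, scalings, thresholds and handling of a listed 0. A mean of at least 50 FPKM and leaving out members that share sequence or rest on under 20 reads were chosen after seeing the data. The summed level of the B cell markers is not reported here.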

Additional observations from a re-analysis of the deposited data

How the results depend on the processing

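Of 33 recomputed medians, 27 kept their sign and stayed within 0.1 (log2) of the reported one. Under median-of-ratios scaling the medians were 0.61 for apoptotic cells against untreated, 0.54 for LPS against untreated and 0.11 for apoptotic cells against LPS, and upper-quartile scaling gave 0.38 for the last. For LPS against untreated, the median of -0.07 became 0.10 under upper-quartile scaling, with 16 members higher (39.8% of all genes) and 11 lower. Taking a listed 0 as a value gave 0.0048, beside 0.18 over all genes. The members' median thus lay below that of all genes, not above it as reported (-0.07 beside -0.40). For apoptotic cells against untreated that handling gave 0.40, beside 0.38 over all genes (reported 0.39 beside -0.13). For apoptotic cells against LPS it gave 0.46, beside 0.29 (reported 0.51 beside 0.32). Counts at 2-fold are small and move easily. Shares of all genes in the same setting stand in brackets. For apoptotic cells against untreated, 3 of 21 members were higher under median-of-ratios scaling (16.1%). With a listed 0 taken as a value 8 of 36 were higher (41.4%) and 7 lower (21.3%). At 1.5-fold 7 of 21 were higher (22.1%). For LPS against untreated, 5 of 27 members were higher under median-of-ratios scaling (19.1%). The count was 6 of 33 with a listed 0 as a value (39.6%) and 2 of 27 at 1.5-fold (15.9%). It was 0 with a pseudocount of 5 (4.79%). It was also 0 with a mean of at least 50 FPKM (17.0%) or without members that share sequence (8.51%), because Cycs then drops out. Members lower numbered 1 of 33 with a listed 0 as a value (25.5%) and 3 of 27 at 1.5-fold (42.7%). For apoptotic cells against LPS, 2 of 26 members were higher with a pseudocount of 0.1 (22.7%). The count was 4 of 35 with a listed 0 as a value (25.5%) and 10 of 26 at 1.5-fold (33.4%). It was 0 under median-of-ratios (9.04%) or upper-quartile scaling (13.1%). It was also 0 over genes above 0 in all 3 libraries (16.0%), which leaves out Uqcrh. Members lower numbered 6 of 35 with a listed 0 as a value (20.8%). Apart from those exclusions, and the zeros and thresholds by construction, the cause was not tested. No paired analysis was possible because each condition has 1 library. Depth limits the low isoforms Cox6a2, Cox6b2 and Cox7a1 and the name-only member Atp5s most. Leaving out members under 20 reads, chosen after seeing the data, left all 3 medians at their reported values.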

Other observations

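Some genes of these complexes carry older symbols that the rule does not match. 2010107E04Rik, a small ATP synthase subunit now called Atp5mpl, was listed at 128 FPKM untreated, 159 with apoptotic cells and 81.5 with LPS, the order seen as deposited in 6 of the 7 complex V members above 0 in every library. Usmg5, now Atp5md, was listed at 148 FPKM untreated and at 0 in both treated libraries, like Cox6c. The complex II assembly factor genes Acn9 (Sdhaf3) and 1110058L19Rik (Sdhaf4) were listed at 6.39, 0 and 0.872 FPKM and at 13.1, 0 and 4.27 FPKM. Of the members that only share a name, Atp5s was listed at 1.17, 1.73 and 0.762 FPKM, Atp5sl at 2.64 FPKM with LPS only and Cox4nb at 4.85 FPKM with apoptotic cells only.

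Of 36 members with a mean of at least 1 FPKM, 11 share over 10% of their 50-base words with another annotated gene, and 5 of these were at 0 in 1 or 2 libraries. Of the 25 that share less, 10 were. Atp5l, whose words are the most shared (52.5% with Gm10221), was above 0 in every library.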
